A study of Mus musculus with 8 samples.

Results

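The genes of the Rb family and of the E2F factors that its proteins bind were followed across single-cell RNA-seq libraries of the mouse line SN4741. The set holds 10 of the 31053 genes in the files: the pocket-protein genes Rb1, Rbl1 (p107) and Rbl2 (p130), and the factors E2f1, E2f2, E2f3, E2f4, E2f5, E2f7 and E2f8. It was chosen by symbol and not by a rule on measured values, though earlier results of these data were known. SN4741 was derived from embryonic mouse substantia nigra, carries a temperature-sensitive SV40 large T antigen under the tyrosine hydroxylase promoter, and is described as clonal, so all libraries come from 1 line. The labels give every library a WT genotype and the cell type neural precursor cells, and the study found the karyotype to be polyploid and to vary from cell to cell. Cells of 4 libraries were grown at 37 °C, the permissive temperature, in medium with 10% fetal bovine serum, and cells of the other 4 were held for 48 hours at 39 °C, where the T antigen is unstable, in medium with 0.5% serum. Temperature and serum changed together and cannot be told apart, and the labels name no batch. The labels number the replicates but do not say that they were separate cultures, so p-values measure the spread between these libraries, which may be technical.

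Rb family proteins bind E2F factors and hold them silent on the promoters of cell cycle genes. Cyclin-dependent kinases phosphorylate the Rb proteins late in G1 and so free the activating E2Fs, which switch on genes for DNA synthesis. SV40 large T antigen binds Rb1, p107 and p130 directly and takes them off E2F, which helps to keep cells dividing. E2F1, E2F2 and E2F3 are activators, E2F4 and E2F5 act mainly as repressors in resting cells together with p130 and p107, and E2F7 and E2F8 repress E2F targets without a pocket protein. Several of these genes are themselves E2F targets.

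Of the 18351 kept cells, 8550 were at 37 °C and 9801 at 39 °C. A library held 17166686 to 29633818 UMIs, each a counted mRNA molecule, in its kept cells. Of the neural progenitor markers, 5 of 8 reached 1 CPM (count per 1000000 UMIs) at both temperatures, with Pax6, Msi1 and Fabp7 below 0.1 CPM, and 3 of 8 neuron markers did so. Mesenchymal markers reached it in 7 of 8 cases, and their summed level was 2144 to 2206 CPM at 37 °C and 890 to 927 CPM at 39 °C. The neural progenitor markers summed to 5993 to 6310 CPM at 37 °C and 5833 to 6552 CPM at 39 °C. Summed neuron markers were at 165 to 194 CPM at 37 °C and 79.3 to 97.7 CPM at 39 °C, with Rbfox3, Dcx, Snap25, Elavl3 and Syt1 below 0.1 CPM, and summed glia markers at 3.20 to 3.63 and 4.93 to 5.62 CPM. The part of these lists in the results below was not tested. Microglia and endothelium markers summed to at most 2.68 CPM in any library. Levels are given in CPM within 1 gene across libraries. The libraries count mRNA 3′ ends and are not scaled by transcript length, so no order of level between genes is drawn, and isoforms such as those of E2f3 are not told apart.

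The positions of the members (GENCODE M21 on GRCm38, the same assembly as mm10) place Rb1 on chr14:73183673-73325822, Rbl1 on chr2:157145893-157204534 and E2f1 on chr2:154559407-154569892. E2f7 lies on chr10:110745439-110787384, E2f8 on chr7:48866429-48881596 and E2f3 on chr13:29906575-29986063. Rbl2 is on chr8:91070057-91123844, E2f4 on chr8:105297663-105305370, E2f2 on chr4:136172394-136196057 and E2f5 on chr3:14578641-14606309. Rb1 overlaps Gm17233 on its own strand, so its counts are uncertain to that extent, and Rb1, Rbl2, E2f3, E2f5 and E2f7 overlap other genes on the opposite strand, with the use of strand in counting not given in the sources used here.

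RefSeq promoter windows (GRCm38.p6, 250 bases before each annotated start) were on hand for 7 members, 9 windows in all, since E2f2 and E2f3 have 2 starts each. They were searched on both strands for the E2F consensus as TTTCCCGC, TTTCGCGC, TTTGCCGC or TTTGGCGC. The match was found in 3 of the 9 windows, against 1.86% of 32851 promoters in the table. The stretches with the match belong to Rbl1, E2f7 and E2f3, which were lower at 39 °C. E2f1, E2f2 and E2f8, whose windows hold no match, were lower as well. Of the members with a window only Rbl2 was higher, and the other higher members, Rb1 and E2f5, had no window. These windows therefore cannot tie a match to a direction of change. Capitals mark the match, and each stretch is read 5′ to 3′ on the strand of the gene.
Rbl1 (chr2:157204535-157204592, minus strand): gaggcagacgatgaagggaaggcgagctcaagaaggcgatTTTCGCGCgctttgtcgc
E2f7 (chr10:110745201-110745288, plus strand): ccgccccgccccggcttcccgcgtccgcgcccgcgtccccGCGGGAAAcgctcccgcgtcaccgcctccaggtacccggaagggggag
E2f3 (chr13:29986064-29986114, minus strand): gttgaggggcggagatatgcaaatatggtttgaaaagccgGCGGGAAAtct
The match begins 18 bases before the start in Rbl1, 198 in E2f7 and 11 in E2f3, and in E2f7 and E2f3 it reads as TTTCCCGC on the opposite strand. The windows of E2f1, E2f2, E2f8 and Rbl2 hold none of these exact letters. The only E2f1 window, chr2:154569377-154569676, lies within the gene span given above, so bases before that span were not searched. The CHR element, the cell cycle gene homology region bound by the MuvB complex, was searched as TTTGAA or TTCGAA. It was in the windows of E2f8 (20 bases before the start), E2f3 (23), Rbl2 (201) and 1 start of E2f2 (31), against 17.1% of all promoters, and in E2f3 it does not overlap the E2F match. A match is a description of the sequence and not a measured binding site.

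In all cells, the activating and the atypical E2F genes were lower at 39 °C and Rb1, Rbl2 and E2f5 were higher. Counts were summed over the cells of each library and compared with edgeR's quasi-likelihood test, with p-values adjusted over all 15810 tested genes. All 10 members passed an adjusted p of 0.05. At 39 °C 7 members were lower, where 30.5% of all tested genes were lower, and 3 were higher, where 31.5% were. The libraries at 37 °C did not overlap those at 39 °C for any of the 10 members, and the same held for 56.7% of all genes, so a call by itself is common here and the sizes say more. The median log2 fold change of the members was -0.52, and that of all tested genes 0.02. Only E2f2 and E2f8 passed the study's own limits of an adjusted p under 0.01 and a log2 change over 1.5 in size, which 3.62% of genes passed in the lower direction. In bulk sums of this kind, fewer cells that express a gene and less RNA per cell cannot be told apart.

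**Figure D1:**
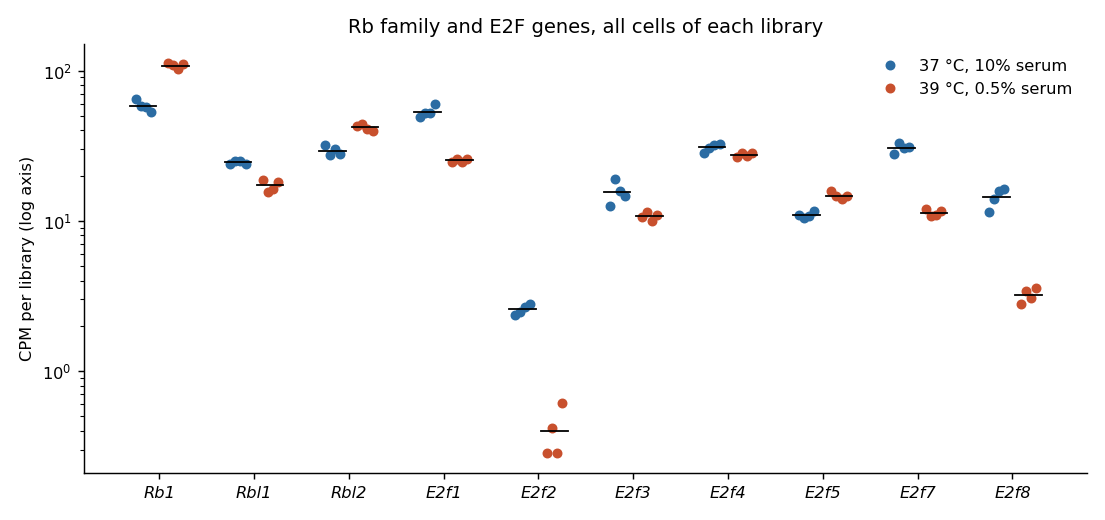
Level of each gene in CPM (log axis) in all cells of each library. Blue points are the 4 libraries at 37 °C, orange points the 4 at 39 °C, and black lines the group means. E2f2 stands at 2.37 to 2.81 CPM at 37 °C and 0.283 to 0.617 CPM at 39 °C, the widest gap of the 10, and no gene has overlapping groups.

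Among the pocket proteins, Rb1 and Rbl2 were higher at 39 °C and Rbl1 was lower. Rb1, the retinoblastoma protein gene, stood at 65.0, 58.1, 56.9 and 52.9 CPM in replicates 1 to 4 at 37 °C and at 112, 109, 102 and 110.0 CPM at 39 °C. Every 39 °C library lay above every 37 °C library, and the level was 1.85-fold higher (log2 0.89 ± 0.06 SE, adjusted p = 5.65e-11, edgeR). Rbl2, which encodes p130, the pocket protein that prevails in resting cells, read 32.2, 27.2, 29.9 and 28.0 CPM at 37 °C and 42.9, 44.0, 40.8 and 39.8 CPM at 39 °C. It was 1.43-fold higher (log2 0.51 ± 0.06 SE, adjusted p = 1.53e-07, edgeR). Rbl1 encodes p107, which is made mainly in cycling cells. Its level was 24.0, 25.1, 25.2 and 23.9 CPM at 37 °C and 18.8, 15.6, 16.4 and 18.2 CPM at 39 °C. Rbl1 was thus 1.43-fold lower at 39 °C (log2 -0.52 ± 0.06 SE, adjusted p = 3.93e-07, edgeR), against 0.51 upward for Rbl2.

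The activators were lower at 39 °C to different degrees. E2f1 stood at 49.1, 52.0, 52.0 and 60.1 CPM at 37 °C and at 24.6, 25.9, 24.7 and 25.7 CPM at 39 °C. That is a 2.11-fold lower level (log2 -1.08 ± 0.06 SE, adjusted p = 6.97e-12, edgeR), with a spread of 0.670 CPM (SD, n = 4) at 39 °C. E2f2 was rare in every library. It had 69, 64, 76 and 80 UMIs at 37 °C and 5, 11, 8 and 16 UMIs at 39 °C, or 2.58 ± 0.196 CPM against 0.400 ± 0.158 CPM (SD, n = 4). The difference was 6.28-fold (log2 -2.65 ± 0.21 SE, adjusted p = 1.30e-09, edgeR), the largest in size of the 10 and the one resting on the fewest molecules. E2f3 gave 12.6, 19.0, 15.7 and 14.7 CPM at 37 °C and 10.7, 11.5, 9.91 and 10.9 CPM at 39 °C. Its groups came close to each other, with replicate 1 at 37 °C only just above replicate 2 at 39 °C, and the level was 1.44-fold lower (log2 -0.53 ± 0.10 SE, adjusted p = 0.000104, edgeR).

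The E2Fs that work with p130 and p107 moved little or upward. E2f4 stood at 28.5, 30.5, 32.0 and 32.4 CPM at 37 °C and at 26.8, 28.1, 27.1 and 28.3 CPM at 39 °C. This was the smallest difference of the 10, 1.12-fold lower (log2 -0.16 ± 0.05 SE, adjusted p = 0.0118, edgeR), and with an upper limit of 5000 genes per cell in place of 6000 it no longer passed (log2 -0.12, adjusted p = 0.0759). E2f5 gave 11.0, 10.5, 10.8 and 11.6 CPM at 37 °C and 15.8, 14.6, 13.9 and 14.7 CPM at 39 °C. It was the only E2F gene of the 7 that was higher at 39 °C, by 1.34-fold (log2 0.42 ± 0.06 SE, adjusted p = 9.58e-06, edgeR).

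The atypical E2Fs fell most after E2f2. E2f7 stood at 27.8, 32.9, 30.5 and 31.0 CPM at 37 °C and at 12.03, 10.7, 10.9 and 11.6 CPM at 39 °C, which is 2.71-fold lower (log2 -1.44 ± 0.06 SE, adjusted p = 2.87e-13, edgeR). E2f8 gave 11.5, 13.9, 15.8 and 16.4 CPM at 37 °C and 2.78, 3.41, 3.08 and 3.55 CPM at 39 °C, which is 4.44-fold lower (log2 -2.15 ± 0.12 SE, adjusted p = 5.86e-12, edgeR). Both genes encode repressors that are themselves made in S phase.

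The temperatures differed in the phases to which cells were assigned, and that difference stands beside every value above. Phases came from scores over 41 S and 52 G2M genes, with E2f8, which stands on the S list, left out and no other member on either list. The scores do use other E2F target genes, so a phase in part matches cells on E2F target mRNA. A smaller difference within a phase than in all cells cannot be told apart from that matching. G1 held 24.2% ± 3.15 of cells at 37 °C and 84.0% ± 1.30 at 39 °C, S held 40.9% ± 2.31 and 11.7% ± 0.740, and G2M held 34.8% ± 1.25 and 4.30% ± 1.05 (SD, n = 4 each). A phase is here a range of a score, and 2398 cells (13.1%) lay within 0.05 of a limit between phases. The smallest sum, G2M cells of replicate 1 at 39 °C, rests on 28 cells and 447608 UMIs. Each phase was then compared between temperatures by itself.

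Within G1, 7 members passed, 4 of them lower (22.4% of genes were) and 3 higher (25.0%). Rb1 gave 68.6, 57.8, 59.5 and 53.3 CPM at 37 °C and 114, 111, 107 and 115 CPM at 39 °C, and was 1.90-fold higher (log2 0.93 ± 0.06 SE, adjusted p = 6.01e-11, edgeR). E2f5 (log2 0.57 ± 0.10 SE, adjusted p = 3.41e-05) and Rbl2 (log2 0.29 ± 0.07 SE, adjusted p = 0.000801) were higher as well. E2f1 in G1 cells stood at 35.5, 26.8, 35.4 and 35.0 CPM at 37 °C and at 19.9, 20.9, 20.9 and 21.7 CPM at 39 °C. It was 1.56-fold lower (log2 -0.64 ± 0.08 SE, adjusted p = 4.45e-07, edgeR), with no overlap. E2f7 was 1.28-fold lower (log2 -0.35 ± 0.11 SE, adjusted p = 0.0106), and E2f3 1.26-fold lower (log2 -0.33 ± 0.11 SE, adjusted p = 0.0186). The E2f3 call was lost without replicate 2 at 37 °C (adjusted p = 0.0864), without replicate 4 at 37 °C (0.0939) and without replicate 3 at 39 °C (0.0570).

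E2f2 was rarest in G1 cells. The 4 libraries at 37 °C held 8 UMIs of it among 24085655, and those at 39 °C held 3 UMIs among 82471774, all 3 in replicate 4. The pooled level was 9.13 times higher at 37 °C, with an exact 95% counting interval of 2.19 to 53.4 that covers counting error only. For the other libraries at 39 °C, a count of 0 allows up to 0.125 to 0.203 CPM. E2f2 passed the test in G1 (adjusted p = 0.0155, edgeR) but not without replicate 4 at 37 °C (adjusted p = 0.118).

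Rbl1, E2f4 and E2f8 did not pass in G1. Rbl1, lower by 0.52 on the log2 scale in all cells, differed by -0.18 ± 0.10 SE (adjusted p = 0.154, edgeR), and its libraries overlapped at 13.7 to 20.3 CPM at 37 °C and 13.4 to 15.7 CPM at 39 °C. E2f8 differed by -0.29 ± 0.28 SE (adjusted p = 0.408), against -2.15 in all cells. In G1 cells it read 2.09 ± 0.969 CPM (SD, n = 4) at the lower temperature and 1.59 ± 0.216 CPM at the higher. E2f4 differed by -0.02 ± 0.07 SE (adjusted p = 0.838). Without replicate 4 at 37 °C the E2f8 difference was 0.06 (adjusted p = 0.898) and that of Rbl1 passed (log2 -0.26, adjusted p = 0.0465).

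Within S, 8 members passed, 5 lower (23.4% of genes were) and 3 higher (20.7%). E2f1 stood at 78.6, 87.8, 79.3 and 95.9 CPM at 37 °C and at 58.3, 58.3, 54.1 and 49.3 CPM at 39 °C, and was 1.56-fold lower (log2 -0.64 ± 0.08 SE, adjusted p = 1.40e-07, edgeR), the same fold as in G1. E2f8 gave 14.0, 16.7, 18.8 and 20.1 CPM at 37 °C and 8.26, 10.8, 9.91 and 9.35 CPM at 39 °C, 1.80-fold lower (log2 -0.85 ± 0.16 SE, adjusted p = 4.36e-05, edgeR). E2f7 was 1.46-fold lower (log2 -0.54 ± 0.10 SE, adjusted p = 4.01e-05). Rb1 was 1.68-fold higher (log2 0.75 ± 0.08 SE, adjusted p = 2.40e-09, edgeR) and Rbl2 1.61-fold higher (log2 0.69 ± 0.09 SE, adjusted p = 2.82e-07). The other calls in S were near the threshold. E2f2 (log2 -0.86 ± 0.30 SE, adjusted p = 0.0205) was lost without replicate 3 at 39 °C (0.0701) and with DESeq2 (0.0525). E2f3 (log2 -0.38 ± 0.15 SE, adjusted p = 0.0423) was lost without replicate 2 at 37 °C (0.156), without any 1 of the 39 °C libraries (0.0520 to 0.125), with DESeq2 (0.0866) and with edgeR's own count filter (0.0671). E2f5 (log2 0.41 ± 0.16 SE, adjusted p = 0.0338) was lost without replicate 1 (0.118), 2 (0.198) or 4 (0.0536) at 39 °C and with DESeq2 (0.0520). Rbl1, at 27.5 ± 1.36 CPM against 31.7 ± 4.66 CPM (SD, n = 4), and E2f4 did not pass (adjusted p = 0.116 and 0.810).

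Within G2M, Rb1 alone passed (log2 0.70 ± 0.10 SE, adjusted p = 1.87e-06, edgeR), where 16.4% of genes were lower and 13.6% higher. It stood at 70.9, 66.8, 66.3 and 57.4 CPM at 37 °C and at 141, 106, 87.6 and 107 CPM at 39 °C. The other 9 members differed by -0.04 to 0.44 on the log2 scale with standard errors of 0.13 to 0.49. E2f3 (log2 0.44 ± 0.19 SE, adjusted p = 0.0801) and Rbl1 (log2 0.30 ± 0.13 SE, adjusted p = 0.0900) came nearest. E2f3 passed when replicate 2 at 37 °C was left out (adjusted p = 0.0412).

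The sizes within phases, and for some members the directions, depended on how phases were assigned. In the values above all libraries were scored together. When each library was scored by itself, 4406 cells (24.0%) moved to another phase, and G1 then held 38.7% to 42.5% of cells at 37 °C and 52.98% to 58.4% at 39 °C. In G2M 7 members passed under this scoring, 5 lower (28.3% of genes) and 2 higher (25.9%), in a fit that called 54.1% of all genes where the joint scoring called 30.0%. Rb1 was higher there by 0.93 on the log2 scale and Rbl2 by 0.34. E2f8 (log2 -1.55), E2f2 (-1.53), E2f7 (-1.02), Rbl1 (-0.28) and E2f4 (-0.26) were lower. In G1, E2f8 (log2 -1.27, adjusted p = 0.000271, edgeR) and Rbl1 (log2 -0.62, adjusted p = 1.07e-05) passed as lower, E2f1 was at -1.14 and E2f7 at -1.03. In S, E2f8 was at -2.08, E2f7 at -1.44, E2f1 at -1.26 and E2f2 at -2.36, and Rbl1 passed as lower (log2 -0.23, adjusted p = 0.0286). Rb1 was higher under both scorings in every phase, by 0.70 to 0.93 with joint scoring and by 0.80 to 0.98 with each library by itself.

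**Figure D2:**
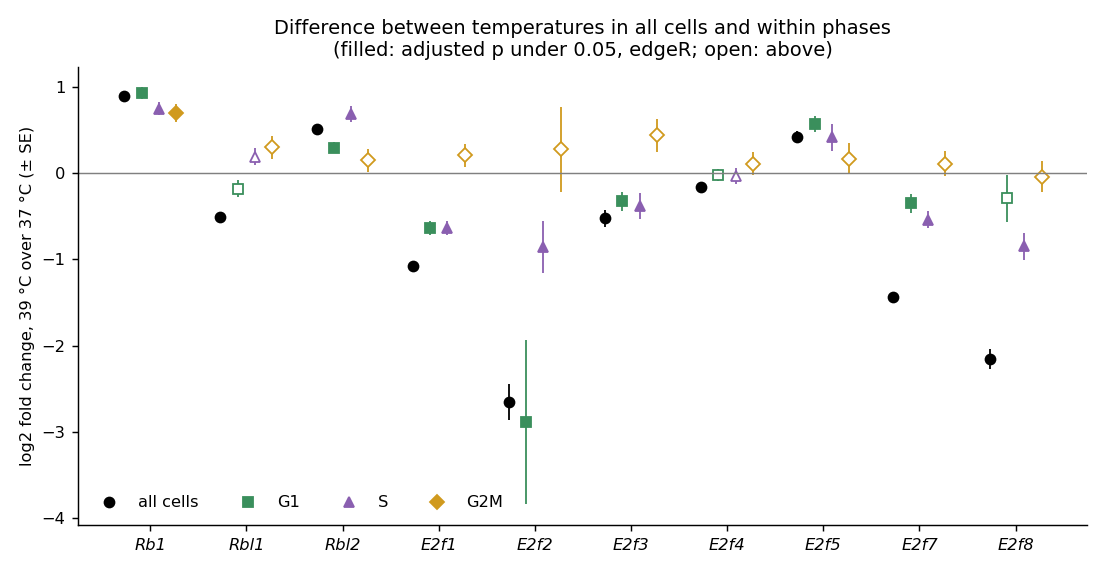
Log2 fold change of each gene at 39 °C over 37 °C, with its standard error, in all cells (black circles) and in cells assigned to G1 (green squares), S (purple triangles) and G2M (yellow diamonds); filled symbols passed an adjusted p of 0.05 (edgeR). Rb1 lies between 0.70 and 0.93 in every set, while E2f8 is at -2.15 in all cells and between -0.85 and -0.04 within phases, all with joint scoring. The E2f2 value in G1 (-2.88 ± 0.95 SE) rests on 8 and 3 UMIs and depends on the count added by the fit.

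Rb1 was higher at 39 °C in each phase, by 1.90-fold in G1, 1.68-fold in S and 1.62-fold in G2M, and it was the only member called in all 3 with joint scoring. Rbl1 went from -0.52 in all cells to -0.18, 0.19 and 0.30 in G1, S and G2M, none of which passed with joint scoring. A weighted sum of the jointly scored phases was computed as arithmetic, with no test. Giving the 37 °C levels of each phase the shares of UMIs that the phases had at 39 °C (84.8% in G1, 10.9% in S and 4.24% in G2M) yields 4.46 CPM of E2f8, 14.6 CPM of E2f7 and 18.5 CPM of Rbl1. The levels at 37 °C on the same scale were 14.6, 31.1 and 24.9 CPM, and those at 39 °C were 3.20, 11.4 and 17.3 CPM. For E2f1 the weighted level was 38.8 CPM, between 54.2 CPM at 37 °C and 25.3 CPM at 39 °C. For Rb1 it was 59.3 CPM, next to 59.2 CPM at 37 °C and far from 109 CPM at 39 °C. E2f5 likewise had a weighted level of 10.5 CPM, with 11.1 CPM at 37 °C and 14.8 CPM at 39 °C. The weighting was not repeated with each library scored by itself. Under that scoring the log2 differences in G1, S and G2M were -1.27, -2.08 and -1.55 for E2f8. They were -1.03, -1.44 and -1.02 for E2f7, and -0.62, -0.23 and -0.28 for Rbl1.

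The members also differed between the phases of 1 temperature. These values describe the assigned phases, because phases and levels come from the same cells, and no cycling is read from them alone. At 37 °C, E2f1 rose from 33.2 ± 4.25 CPM in G1 to 85.4 ± 8.17 CPM in S and stood at 32.5 ± 3.78 CPM in G2M (SD, n = 4). E2f7 and E2f8 did not drop back in this way. E2f7 read 10.4 ± 0.790, 39.7 ± 3.53 and 33.5 ± 0.824 CPM in G1, S and G2M, and E2f8 2.09 ± 0.969, 17.4 ± 2.68 and 18.6 ± 1.84 CPM. Rbl1 followed the atypical E2Fs with 16.9 ± 2.71, 27.5 ± 1.36 and 26.6 ± 1.59 CPM. Rbl2 ran the other way, at 35.8 ± 2.29, 24.2 ± 1.90 and 32.4 ± 3.38 CPM, and E2f5 was likewise lowest in S, at 10.6 ± 0.977, 8.31 ± 0.0846 and 14.5 ± 1.35 CPM.

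Between S and G1 at 37 °C, all 10 members passed, 7 higher in S (23.7% of genes were) and 3 lower (21.6%), in a fit with the library as a block. The folds were 11.7 for E2f2 (179 against 8 UMIs, with a ratio of pooled levels of 11.7 and an exact counting interval of 5.80 to 27.5), 8.63 for E2f8, 3.87 for E2f7, 2.60 for E2f1, 1.66 for Rbl1 and 1.55 for E2f3. The calls of Rb1, E2f4 and E2f5, with log2 differences of -0.15, 0.18 and -0.31, were each lost without single libraries. For Rb1 these were replicates 1 (adjusted p = 0.0995, edgeR) and 3 (0.119), for E2f4 replicates 2 (0.240) and 4 (0.162), and for E2f5 replicates 2 (0.147) and 4 (0.0862). From S to G2M, 7 members passed, 4 lower in G2M (23.7% of genes) and 3 higher (20.9%). E2f1 was 2.64-fold lower in G2M, E2f2 1.66-fold, E2f3 1.49-fold and E2f7 1.19-fold. The E2f2 call was lost without replicate 2 at 37 °C (adjusted p = 0.102, edgeR). E2f5 was 1.73-fold higher in G2M, Rbl2 1.33-fold and Rb1 1.22-fold.

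At 39 °C the few cells assigned to S still held more activator mRNA than G1 cells. In that comparison 8 members passed, 6 higher in S (17.3% of genes) and 2 lower (19.4%). E2f1 was 2.61-fold higher in S, as at 37 °C, while E2f7 was 3.42-fold, E2f8 5.92-fold, Rbl1 2.14-fold and E2f3 1.52-fold higher. E2f2 had 24 UMIs in S and 3 in G1, a ratio of pooled levels of 62.5 with an exact counting interval of 19.0 to 324. Rb1 (log2 -0.33 ± 0.06 SE) and E2f5 (log2 -0.46 ± 0.14 SE) were lower in S, and the E2f5 call was lost without replicate 3 at 39 °C (adjusted p = 0.0922, edgeR). From S to G2M at 39 °C, 2 members passed. E2f1 was lower in G2M (log2 -0.55 ± 0.13 SE, with 5.8% of genes lower), and E2f8 was higher (log2 0.90 ± 0.24 SE, with 5.9% higher). Without replicate 4 at 39 °C the E2f8 difference was 0.72 and did not pass (adjusted p = 0.139, edgeR), leaving 1 call. With DESeq2 size factors 4 members passed, where 11.7% of genes did.

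**Figure D3:**
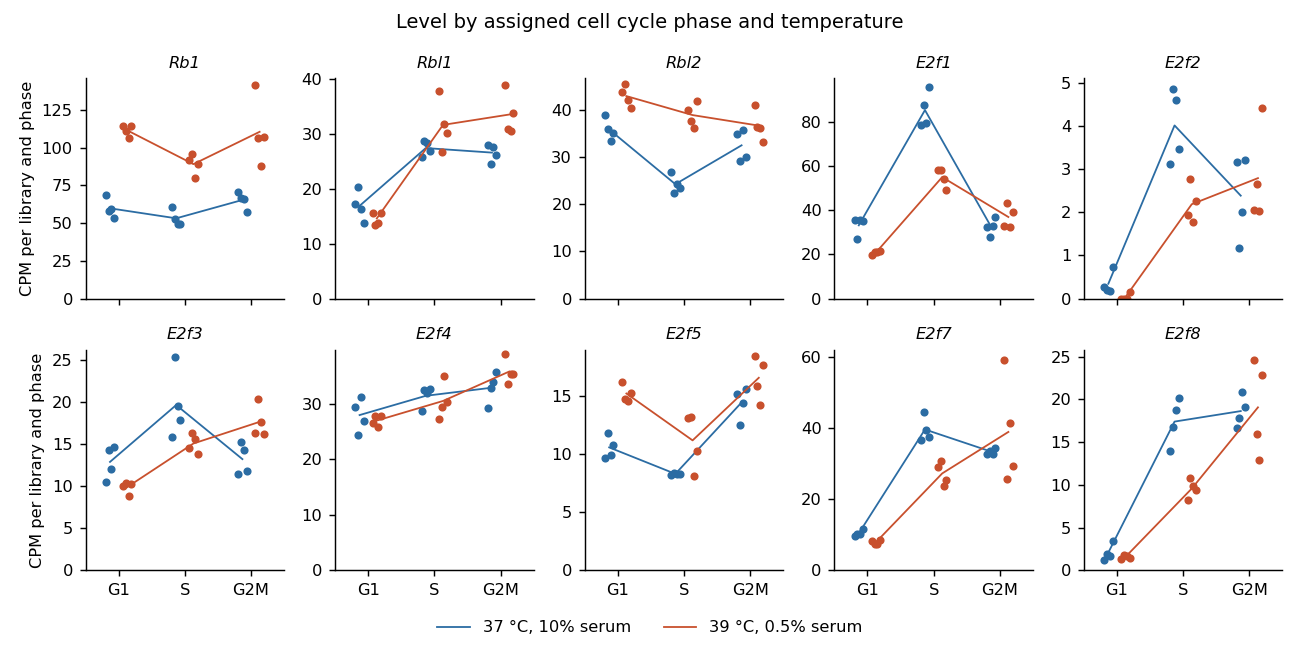
Level of each gene in CPM in cells assigned to G1, S and G2M, per library; blue points are libraries at 37 °C, orange points libraries at 39 °C, and lines join the group means. Each panel has its own axis from 0. Rb1 is above in orange at every phase (111, 89.1 and 111 CPM against 59.8, 53.2 and 65.3 CPM), and E2f1 peaks in S at both temperatures (85.4 and 55.0 CPM).

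Whether the temperature difference itself depended on the phase was tested as an interaction over the 24 sums of library and phase. Between S and G1, 2 members passed, both with a larger difference upward in S, where 10.0% of genes passed in either direction. Rbl2 had an interaction of 0.42 ± 0.10 SE on the log2 scale (adjusted p = 0.00295, edgeR), with levels of 42.9, 38.8 and 36.6 CPM in G1, S and G2M at 39 °C and 35.8, 24.2 and 32.4 CPM at 37 °C. Rbl1 had 0.40 ± 0.13 SE (adjusted p = 0.0316), lost without replicate 1 (0.116) or 2 (0.128) at 37 °C and without replicate 1 (0.153), 2 (0.0640) or 3 (0.114) at 39 °C. Between G2M and G1, 3 members passed, where 7.0% of genes did. E2f1 had an interaction of 0.87 ± 0.16 SE (adjusted p = 3.66e-05, edgeR), with a temperature difference of -0.64 in G1 and 0.20 in G2M (adjusted p = 0.285), where it read 32.8, 43.3, 32.6 and 39.1 CPM at 39 °C and 32.2, 27.8, 33.0 and 37.0 CPM at 37 °C. E2f3 had 0.81 ± 0.21 SE (adjusted p = 0.00570), lost without replicate 3 at 39 °C (0.0505), which left 1 call, and when each library was scored by itself (0.0549). Rbl1 had 0.52 ± 0.16 SE (adjusted p = 0.0330), lost without replicate 2 at 37 °C (0.156) and without any 1 of the 39 °C libraries (0.0715 to 0.107).

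The share of cells with at least 1 UMI of a member was compared after each cell was thinned to 5000 UMIs, which left out 668 cells at 37 °C and 1668 at 39 °C. Shares of 9 members did not overlap between temperatures (exact permutation test, two-sided, 70 assignments of libraries, p = 0.0286 each, the smallest it can give), where 45.2% of all genes did not. Rb1 was seen in 24.5% ± 2.08 of cells at 37 °C and in 39.7% ± 1.81 at 39 °C (SD, n = 4). E2f1 was seen in 21.6% ± 1.44 and 12.03% ± 0.504, E2f7 in 13.4% ± 1.32 and 5.00% ± 0.186, and E2f8 in 5.995% ± 1.08 and 1.66% ± 0.106. Rbl2 went from 14.0% ± 1.72 to 18.8% ± 1.87, E2f5 from 5.15% ± 0.709 to 7.56% ± 0.734 and Rbl1 from 11.8% ± 0.283 to 8.75% ± 1.58. E2f3 went from 7.41% ± 0.974 to 5.15% ± 0.331 and E2f2 from 0.944% ± 0.227 to 0.166% ± 0.120. The member that overlapped was E2f4, with 14.1% ± 1.40 and 13.0% ± 0.830 (exact permutation p = 0.229), but without replicate 1 at 37 °C it did not overlap (exact permutation p = 0.0286). Thinned to 2000 UMIs, 8 members did not overlap, against 36.9% of all genes. E2f4 was then one of them (6.16% ± 0.136 and 5.62% ± 0.174, exact permutation p = 0.0286), while E2f3 and E2f5 overlapped (exact permutation p = 0.0571 each). Without thinning, at median depths of 9839 to 15413 UMIs per cell at 37 °C and 6676 to 16665 at 39 °C, Rb1 was seen in 48.3% ± 6.56 and 59.5% ± 11.2 of cells and its libraries overlapped (exact permutation p = 0.143), and 4 members (E2f1, E2f2, E2f7 and E2f8) did not overlap, against 14.5% of all genes. A single line holds no cell type that lacks these genes, so UMIs from free RNA could not be measured.

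Across cells, the members divided in how they went with E2F target mRNA. Cells of each library, thinned as above, were ranked by their summed UMIs of 37 listed E2F target genes and split into quartiles, as a description with no test. Median target UMIs went from 4 to 6 in the lowest quartile to 22 to 25 in the highest at 37 °C, and from 2 to between 11 and 12 at 39 °C. From the lowest to the highest quartile at 37 °C, the share of cells with E2f7 went from 5.72% ± 0.470 to 22.3% ± 2.41, with E2f8 from 1.71% ± 0.641 to 10.7% ± 2.96, with E2f1 from 13.8% ± 2.24 to 29.5% ± 3.85, and with Rbl1 from 7.15% ± 0.852 to 15.5% ± 1.26 (SD, n = 4). Rb1 went from 22.5% ± 1.26 to 27.4% ± 2.76. E2f4 had like shares at the ends, 13.3% ± 1.34 and 13.2% ± 2.16, with 14.3% ± 1.34 and 15.6% ± 2.40 in the quartiles between. Rbl2 (14.8% ± 1.497 to 12.2% ± 2.00) and E2f5 (5.45% ± 1.16 to 4.21% ± 1.35) ended slightly lower.

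At 39 °C most of the step lay in the highest quartile. E2f7 was seen in 3.07% ± 0.615, 3.22% ± 0.626, 4.09% ± 0.973 and 9.63% ± 0.912 of cells from the lowest quartile up, and E2f1 in 8.33% ± 1.92, 9.91% ± 0.459, 10.8% ± 1.05 and 19.1% ± 0.703. The highest quartile at 39 °C and the second at 37 °C had similar median target UMIs (11 to 12 and 10 to 12). They were set side by side on these medians alone, and the highest quartile has no upper limit. Between these quartiles, E2f1 was seen in 19.1% ± 0.703 and 18.0% ± 2.91 of cells, E2f7 in 9.63% ± 0.912 and 8.82% ± 1.61, and E2f8 in 4.20% ± 0.672 and 4.18% ± 0.992. Rb1 had the widest gap there, in 40.5% ± 3.51 of cells at 39 °C and 22.1% ± 2.51 at 37 °C. By smaller gaps, the means of Rbl2 (18.4% ± 2.12 and 14.3% ± 1.93), Rbl1 (15.2% ± 3.28 and 11.7% ± 0.760) and E2f5 (7.09% ± 1.03 and 5.28% ± 0.869) were also higher at 39 °C. Libraries of the temperatures overlapped for Rbl1 (12.1% to 19.8% and 11.0% to 12.8%) and E2f5 (5.88% to 8.39% and 4.5% to 6.18%). E2f3 (7.06% ± 1.16 and 6.42% ± 0.512), E2f2 (0.624% ± 0.488 and 0.534% ± 0.522) and E2f4 (14.2% ± 1.42 and 14.3% ± 1.34) differed little. Of the 37 targets, 17 also entered the phase scores, and with the other 20 alone E2f7 went from 6.29% ± 0.699 to 21.5% ± 2.51 at 37 °C and from 2.82% ± 0.599 to 9.16% ± 0.906 at 39 °C.

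**Figure D4:**
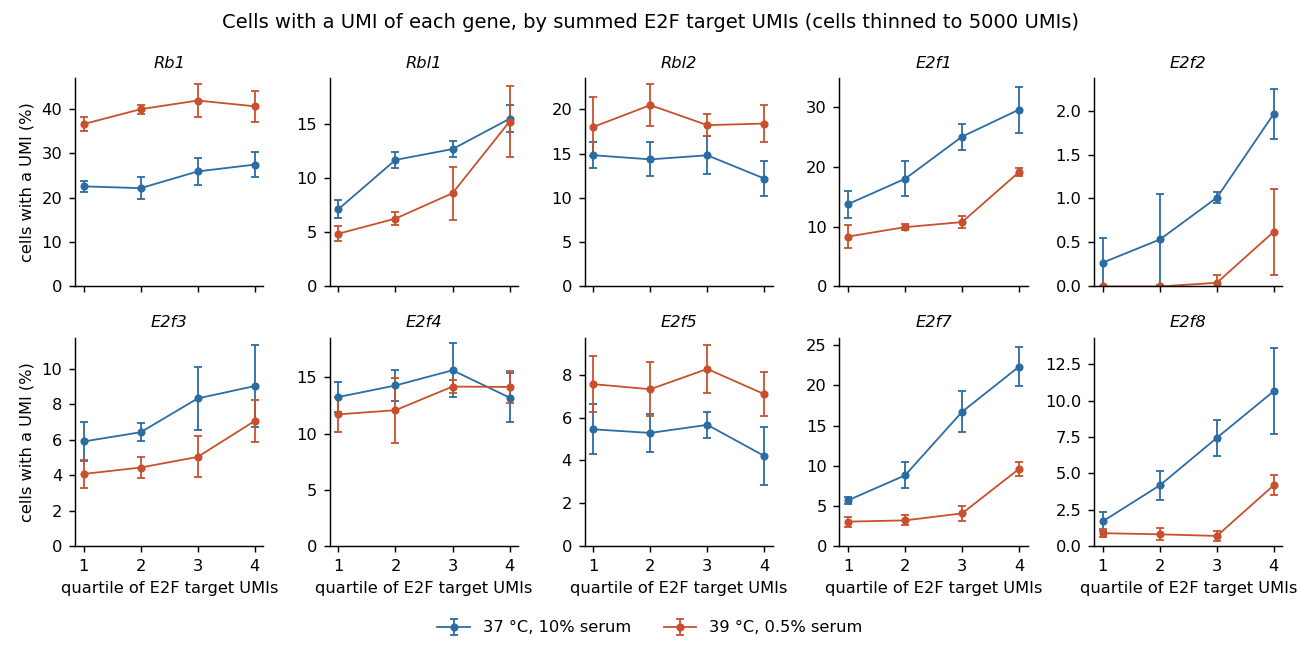
Share of cells with at least 1 UMI of each gene (percent, own axis from 0 in each panel) against the quartile of summed E2F target UMIs within a library, for cells thinned to 5000 UMIs. Points are means of 4 libraries at 37 °C (blue) or 39 °C (orange) and bars are ± SD. E2f7 climbs from 5.72% to 22.3% at 37 °C, while E2f4 stays between 13.2% and 15.6% there.

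Lists of related genes were counted in the same fits, where 30.5% of all tested genes were lower in all cells and 31.5% higher. Of 23 partners of Rb and E2F proteins, 16 were lower in all cells, 6 higher and 1 did not pass, with a median log2 change of -0.35. The largest changes among those of at least 20 CPM were in Foxm1, the factor that drives G2M genes with the MuvB complex (24.7 ± 2.63 against 3.71 ± 0.733 CPM, log2 -2.74), Suv39h1, a histone methyltransferase recruited by Rb1 (log2 -1.30), Skp2, which targets cell cycle inhibitors for degradation (log2 -1.21), and Rbbp7, a histone-binding protein (log2 -1.03). All 9 listed kinases and cyclins that phosphorylate Rb proteins passed, 8 lower and 1 higher. Ccna2, cyclin A, went from 87.3 ± 10.0 to 6.25 ± 0.710 CPM (log2 -3.80) and Ccne2, cyclin E2, from 27.1 ± 3.59 to 6.03 ± 0.769 CPM (log2 -2.18), while the G1 kinases Cdk4 and Cdk6 were lower by less (log2 -0.70 and -0.71).

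Of the 37 E2F targets, 34 were lower in all cells and 2 higher, with a median of -1.43, and within phases the medians were -0.64 in G1, -0.50 in S and -0.08 in G2M. In G1 26 of them were lower and 6 higher, in S 27 and 3, and in G2M 13 and 5. Of all tested genes, 22.4% were lower and 25.0% higher in G1, 23.4% and 20.7% in S, and 16.4% and 13.6% in G2M. Among those of at least 20 CPM the largest changes were in Plk1 (log2 -3.90), Ccna2 (-3.80), Bub1 (-3.38) and Aurkb (-3.33), all genes of G2 and mitosis. Ccne1, cyclin E1, which stands on this list and on that of kinases and cyclins, was lower by more (log2 -4.25) from 19.0 CPM at 37 °C, and is named here after its value was seen. Of 10 other known host partners of the T antigen, 5 were lower, 3 higher and 2 did not pass, with a median of -0.05. Of all tested genes, 30.5% were lower and 31.5% higher. Named by the same rule, these were Bub1 again, Ep300 (log2 0.46) and Fbxw7 (0.43), both higher, and Nbn (-0.26). Some genes stand on 2 lists, among them Ccna2, Ccne2, Mybl2 and Bub1.

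**Figure D5:**
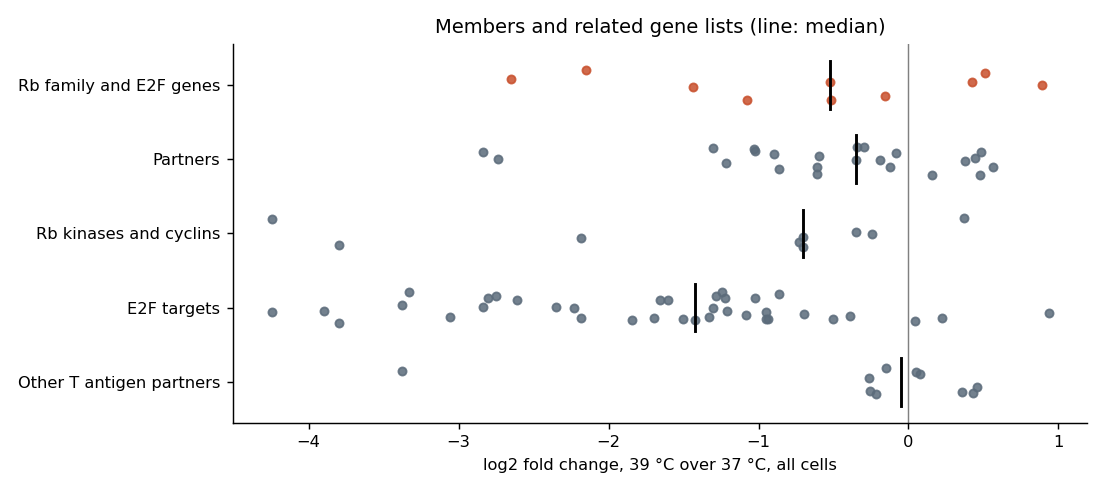
Log2 fold change at 39 °C over 37 °C in all cells for each member (orange) and each gene of 4 related lists (grey); the black line is the median and the height of a point within its row has no meaning. Medians are -0.52 for the members, -0.35 for partners, -0.71 for Rb kinases and cyclins, -1.43 for E2F targets and -0.05 for other T antigen partners.

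The genes whose levels ran most like each member over the 24 sums of library and phase were found by Pearson correlation of log2(CPM + 1) among 6410 genes of at least 20 CPM. The sums share libraries and phases, so these values are a description. Genes used to score the phases were not left out of this search. Casp8ap2, Mcm6 and Brip1, named below, are on the S list, so likeness to them over phases is in part built in. The genes nearest to E2f8 included Brip1 (r = 0.98) and Mcm10 (0.98), and E2f7 ran closest to Cenpk (0.98), Brip1 (0.98) and Brca1 (0.97). E2f1 ran closest to Casp8ap2 (0.96), Cdt1 (0.94) and Mcm6 (0.94), and Rbl1 to Gkap1 (0.96), Etaa1 (0.94) and Slf1 (0.94). Rb1 ran with Zfp365 (0.97), Fgfbp3 (0.97) and Klhl26 (0.97), and Rbl2 with Kdm5a (0.92), Irf2bp2 (0.91) and Klhl24 (0.91). For E2f5 the nearest gene (Triobp, 0.92) was about as close as that of Rbl2. The nearest genes were less close for E2f4 (Ilf2, 0.86) and E2f3 (Enkd1, 0.83), and E2f2 was below 5 CPM and was not compared.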

How the data were processed

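Trypsinized SN4741 cells were captured with the Chromium 3′ V3 kit in 8 libraries, 4 at 37 °C and 4 at 39 °C, grouped by the sample titles. Per the labels and the methods, the authors aligned reads to mm10 with Cell Ranger 3.0.1 and deposited UMI counts per gene and cell, not normalized. Of 19125 cells, those with over 15% mitochondrial UMIs, more than 6000 genes or fewer than 200 were left out, as in the study's methods; apart from the upper limit on genes, doublets were not treated. At most 5 barcodes were shared by 2 libraries, and no library was a copy of another, with counts of each pair further apart than sampling allows (2.85 to 21.4 as chi-square over its degrees of freedom).

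Phases were assigned with Seurat 5.3.0 (CellCycleScoring, all cells together). Counts were summed per library, or per library and phase, a gene needed a mean count of 1 or more, and edgeR 4.0.16 (R 4.3.3; TMM, glmQLFit, glmQLFTest) was fitted with temperature as the factor, or with library and phase within a temperature. Benjamini-Hochberg adjustment ran over all tested genes, a call is an adjusted p under 0.05, and the standard error is the fold change over the square root of F. CPM are scaled by TMM factors; marker CPM use plain totals. The procedure was tested on simulated data. Shares of cells were compared in Python 3.11.15 with exact permutation tests. Alternatives were DESeq2 1.42.0, other scalings and filters, other cell limits, other phase scorings, a replicate block and each library left out.

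The members, lists and tests were chosen with earlier results of these data known. All members are named; of a list, up to 4 genes called in all cells with at least 20 CPM and the largest change are named, and for each member of at least 5 CPM the 3 genes most like it. One gene that this rule names for E2f8 is not reported here. The counting interval, the weighting by phase shares and the choice of quartiles set side by side between temperatures were added after the data were seen. T antigen transcripts were not analysed here.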

Additional observations from a re-analysis of the deposited data

Results flagged for a closer look

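Of 80 groups of 4 libraries (10 members in 2 temperatures, in all cells and in 3 phases), 2 had a library far from the others, and chance alone flags about 1 in 20. E2f1 in G1 cells of replicate 2 at 37 °C stood at 26.8 CPM, below 35.0 to 35.5 CPM in the other 3. E2f2 in G1 cells of replicate 4 at 39 °C stood at 0.141 CPM, from 3 UMIs, with none in the other 3 libraries.

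The temperature difference varied with phase, by the interaction test, in 5 cases. Relative to G1, the log2 difference between temperatures was higher in S by 0.40 for Rbl1 and by 0.42 for Rbl2. In G2M it was higher than in G1 by 0.52 for Rbl1, by 0.87 for E2f1 and by 0.81 for E2f3. Replicate 1 at 39 °C, which gave 28 cells to G2M, is not needed for the E2f1 and E2f3 results, which passed without it.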

How the results depend on the processing

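None of the 58 calls of single members changed direction in the 627 values computed for them; 584 kept their side of the threshold and 43 lost it, most often E2f3 and E2f5 in S and the Rbl1 interactions when 1 library was left out. For the 14 member values within phases that did not pass, 196 were computed: 19 changed direction and 7 passed in the same direction. With each library scored by itself, G2M went to -0.28 for Rbl1, -0.17 for E2f1, -1.53 for E2f2, -0.11 for E2f3, -0.26 for E2f4 and -1.02 for E2f7, and S to -0.23 for Rbl1. Of these, Rbl1, E2f2, E2f4 and E2f7 in G2M and Rbl1 in S passed as lower, while E2f1 and E2f3 did not pass. E2f4 in S was at 0.002 with filterByExpr and E2f8 in G2M at 0.0091 with E2f8 on the S list. With 1 library left out, directions changed for E2f4 in G1 (-0.072 to 0.0327) and in S (-0.1175 to 0.0002), E2f8 in G1 (-0.508 to 0.0551) and in G2M (-0.2282 to 0.1325), and E2f2 (-0.0976 to 0.4602) and E2f7 (-0.0368 to 0.2321) in G2M. In all cells 9 or 10 members passed throughout, in fits that called 48.7% to 72.9% of all tested genes. In S, 5 of 8 calls were left with DESeq2, which called 41.0% of genes where the fit reported called 44.1%. In G2M, 1 member passed in the fit reported (30.0% of genes did), 2 with filterByExpr (36.9%) and 7 when each library was scored by itself (54.1%). With 1 library left out, 1 to 2 passed (2 without replicate 2 at 37 °C), where 24.0% to 30.8% of genes did. From S to G2M at 39 °C, 4 passed with DESeq2 size factors (11.7% of genes did), and 1 to 3 with 1 library left out (8.39% to 10.0%). For the interaction between S and G1, 4 passed with each library scored by itself (16.4% of genes did) and 1 to 3 with 1 library left out (7.73% to 10.6%). For that between G2M and G1, 1 to 4 passed with 1 library left out (1 without replicate 3 at 39 °C), where 5.14% to 8.03% of genes did. Without thinning, 0 shares of cells passed after adjustment over the 10 members, while 4 had an unadjusted exact permutation p of 0.0286. The cause of these changes was not tested, apart from the per-library scoring, which moved 4406 cells to another phase. Deviations of libraries with the same number correlated at r = -0.13, -0.12, -0.12 and 0.33 over 6397 genes, within the -0.39 to 0.35 of libraries with different numbers. No pairing by number was seen, but so few values cannot exclude it. With the replicate block 10 members passed in all cells (60.8% of genes did), 7 in G1 (46.3%), 8 in S (44.3%) and 1 in G2M (29.1%). In G2M at 39 °C a library held 28 to 185 cells.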
